A study of Mus musculus with 24 samples.

Results

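The genes described here are the G1 cyclins, the cyclin-dependent kinases (CDKs) they activate, the CDK inhibitors that hold these kinases back, and the RB-family proteins the kinases act on. The 10 members are Ccnd1, Ccnd2, Ccnd3, Cdk4, Cdk6, Cdkn1b, Cdkn1c, Cdkn2c, Rb1 and Rbl1, and they were chosen by gene symbol from 26995 symbols. Each gene is represented by the 3′UTR entry with its highest mean read count over the 24 libraries. All 10 passed the filter on low counts in total reads, and 7 passed it in labelled reads, where Cdkn1c, Rb1 and Rbl1 had too few.

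A cell passes from G1 into S phase when a D-type cyclin binds CDK4 or CDK6 and the complex phosphorylates the retinoblastoma protein and its relatives, which then release E2F transcription factors. Cdkn2c encodes an INK4 protein that binds CDK4 and CDK6 directly, whereas Cdkn1b and Cdkn1c encode the Cip/Kip proteins p27 and p57, which bind cyclin-CDK complexes. When confluent 3T3-L1 pre-adipocytes are given the adipogenic mixture they re-enter the cell cycle, a phase called clonal expansion, before they leave it for good as adipocytes.

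3T3-L1 is a mouse embryonic fibroblast line that turns into adipocytes when treated with fetal bovine serum, dexamethasone, isobutylmethylxanthine and insulin. RNA was collected at days −2, 1, 3 and 7 relative to induction from cells given the solvent DMSO or 0.5 μM ML-792, which inhibits the SUMO-activating enzyme SAE1/2 and so blocks sumoylation, with replicates A, B and C of each of the 8 conditions. In all 24 libraries the cells had received 100 μM 4-thiouridine for 45 min. Reads with at least 1 T-to-C conversion (labelled reads) are taken to mark RNA made in that time (SLAMseq). The part of them that came from sequencing errors was not measured. All reads together give the mRNA pool (QuantSeq). The 8 groups come from a single line, and the day on which ML-792 was first added to these cultures is not given in the sources used here.

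The libraries held 13554718 to 27013352 total reads and 115709 to 820046 labelled reads. The 10 pre-adipocyte and fibroblast markers summed to 660300 to 758000 normalized counts in DMSO at day −2 and 62540 to 97210 at day 7, and the 10 adipocyte markers to 22740 to 24300 and 655300 to 731000. The markers of other cell types were low, with sums of 93.89 to 436.3 for 6 macrophage and leukocyte genes, 0 to 20.51 for 4 endothelial genes and 16.5 to 545.5 for 5 skeletal muscle genes. The replicate B libraries stood apart, since the chi-square per degree of freedom over entries within a group was 36.1 to 59.2 for A with B and 39.2 to 93.9 for B with C, against 10.6 to 29.5 for A with C. Normalized counts are reads divided by the library's effective size and multiplied by the mean effective size of 18300638.

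The QuantSeq tags of all members lie within the 3′UTR in the last exon of a RefSeq coding transcript (coordinates in mm10). The cyclin entries are Ccnd1 (NM_007631.2, chr7:144929931-144932606, minus strand), Ccnd2 (XM_006505459.2, chr6:127125162-127130334, minus) and Ccnd3 (NM_001081635.1, chr17:47598777-47599689, plus). The kinase entries are Cdk4 (XM_006513163.3, chr10:127067022-127067288, plus) and Cdk6 (NM_009873.3, chr5:3520792-3531008, plus). The inhibitor entries are Cdkn1b (NM_009875.4, chr6:134924243-134925525, plus), Cdkn1c (NM_001161624.1, chr7:143458339-143459021, minus) and Cdkn2c (NM_007671.3, chr4:109660876-109661248, minus). The pocket protein entries are Rb1 (NM_009029.2, chr14:73195502-73197210, minus) and Rbl1 (XM_006499018.1, chr2:157145893-157147505, minus).

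The promoters, from 250 bases before to 50 bases after the RefSeq start in GRCm38.p6, were searched on both strands for the E2F site spelled TTTCCCGC, TTTCGCGC, TTTGCCGC or TTTGGCGC, since E2F factors act downstream of these genes. Over all genes with a promoter, 704 of 27025 held a match (2.6%). Among the 10 members a promoter was at hand for 6 genes, and 1 of them, Rbl1, held a match. The match lies on the coding strand and begins at position −18 from the start site. The stretch around it, chr2:157204536-157204561 on the minus strand, is printed with the match in capitals.
Rbl1: gaaggcgatTTTCGCGCgctttgtcg

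In DMSO, Ccnd1 fell and Cdkn2c rose as the cells became adipocytes, while Ccnd2 and Cdk6 dipped at day 1 and came back by day 3. Ccnd3 was highest at day 1, Cdk4 and Cdkn1b were lower at day 3, and Rb1 was higher at day 7. Of the 10 members, 8 were called in total reads at an adjusted p under 0.01 by edgeR's quasi-likelihood test in at least 1 of days 1, 3 and 7 against day −2. Parentheses after a gene's change give the log2 fold change ± SE and then the adjusted p. By day the calls numbered 3 at day 1, where 16.8% of all 13331 tested genes were called, 4 at day 3, where 36% were, and 5 at day 7, where 38.3% were. The shares were thus near the background, and the median log2 fold change of the members was −0.12, −0.14 and −0.51 beside 0, 0 and −0.02 over all genes. Between days 1 and 3, 6 members were called against a background of 23.2%. Between days 3 and 7 none of the 10 was, against 10.9%. Of the members, 2 had an unadjusted p under 0.05, beside 32.6% of genes, and DESeq2 called 1, Cdk6, beside 16.3%.

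**Figure D1:**
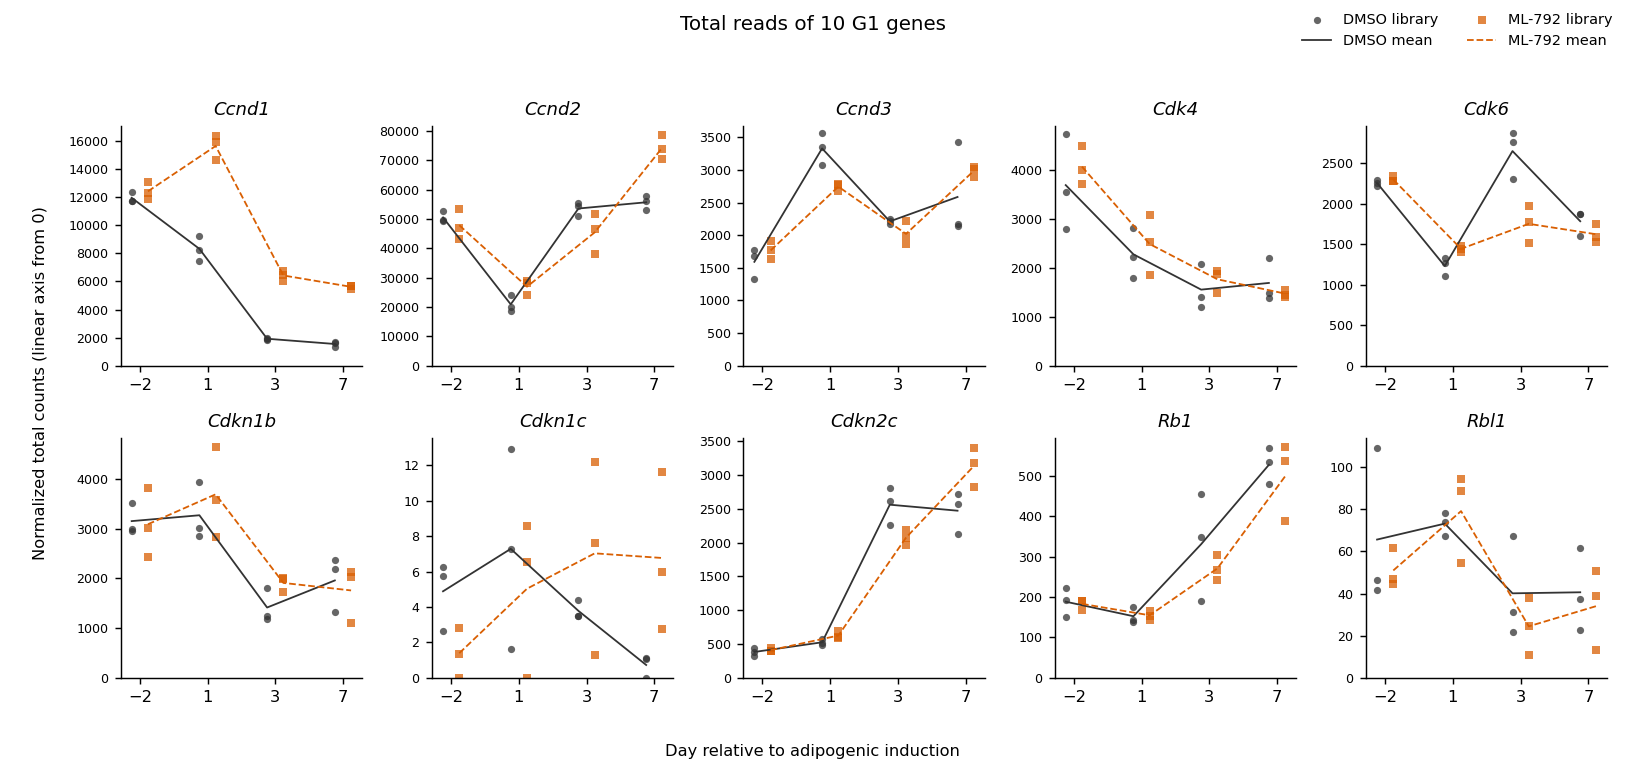
Normalized total counts of the 10 genes (linear vertical axes from 0) by day relative to induction (days drawn at even spacing), with each DMSO library as a circle, each ML-792 library as a square and lines through the group means (n = 3). Ccnd1 runs from a mean of 11960 to 1545 in DMSO and stays at 5618 under ML-792 at day 7, Cdkn2c climbs under both, and the Ccnd2 and Cdk6 panels show a dip at day 1.

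Ccnd1, the cyclin that growth factor signals induce, had 11755, 12370 and 11748 normalized total counts in DMSO replicates A, B and C at day −2. The counts of day 1 were 8275, 9257 and 7440, followed by 1863, 1911 and 1980 on day 3 and 1620, 1658 and 1356 on day 7. Each day lay wholly below the one before it. Day 1 was lower than day −2 by a log2 fold change of −0.52 ± 0.15 (SE), which did not pass the threshold (adjusted p = 0.022 by edgeR) but was called in 4 of 10 alternatives, among them DESeq2 (0.0022) and the fit without replicate B (−0.58, 0.0032). Ccnd1 fell 6.23-fold by day 3 (−2.64 ± 0.16, adjusted p = 5.1e-09) and 7.74-fold by day 7 (−2.95 ± 0.16, adjusted p = 1.6e-09). In bulk RNA such as this, fewer cells of a type and less RNA per cell cannot be told apart. The sum of the pre-adipocyte markers fell too, to 395000 to 466600 at day 1 and 69950 to 82100 at day 3. Pdgfra went the other way at day 1, with 3440 to 4760 counts after 2710 to 2880 at day −2, while the remaining markers were lower by mean. By day 3 Pdgfra was lower as well, at 860 to 1100. The part of these markers in the result was not tested.

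Ccnd2, a D-type cyclin gene that several hormones and growth factors regulate, dipped and recovered. Its DMSO libraries held 52584, 49722 and 49329 normalized total counts at day −2 and 20106, 23990 and 18633 at day 1. At day 3 they held 54423, 51031 and 55344, and at day 7 57896, 53153 and 56107. The day 1 libraries lay below all others, and days −2 and 3 overlapped. Ccnd2 fell 2.42-fold at day 1 (log2 −1.27 ± 0.16, adjusted p = 2.8e-05 by edgeR) and rose 2.56-fold from day 1 to day 3 (1.36 ± 0.16, adjusted p = 8.6e-06). Day 7 differed from day −2 by 0.14 (95% confidence interval −0.19 to 0.47, adjusted p = 0.5). Without replicate A the day 1 call was lost (−1.22, adjusted p = 0.019).

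Ccnd3, the third D-type cyclin, moved the other way at day 1. Its counts were 1673, 1331 and 1770 at day −2 and 3565, 3078 and 3345 at day 1. They were 2243, 2175 and 2215 at day 3, and 2178, 3431 and 2146 at day 7. All day 1 libraries were above all those of days −2 and 3, and at day 7 replicate B stood well above the other two. Ccnd3 rose 2.09-fold at day 1 (log2 1.07 ± 0.19, adjusted p = 0.00087 by edgeR) and was 1.62-fold higher at day 7 than at day −2 (0.7 ± 0.19, adjusted p = 0.0078). The day 7 call was lost without any of the replicates, with a log2 fold change of 0.33 without replicate B (adjusted p = 0.03), 0.85 without A (0.052) and 0.9 without C (0.022). The day 1 call was lost without replicate A (1.05, adjusted p = 0.052) and without C (1.14, adjusted p = 0.017).

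Cdk4, the kinase partner of the D-type cyclins, had 3567, 2794 and 4740 normalized total counts at day −2, 2231, 1802 and 2813 at day 1, 1400, 1201 and 2074 at day 3, and 1392, 2205 and 1489 at day 7. The libraries of days 3 and 7 were all below those of day −2, while day 1 overlapped with it. Cdk4 fell 2.37-fold by day 3 (log2 −1.25 ± 0.26, adjusted p = 0.0012 by edgeR) and was 2.18-fold lower at day 7 (−1.13 ± 0.26, adjusted p = 0.0024). Without replicate A neither call held (−1.2 with an adjusted p of 0.036, and −1.03 with 0.063), and without replicate C the day 7 call was lost (−0.82, 0.038).

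Cdk6, the second kinase that D-type cyclins activate, followed Ccnd2 in its dip. It had 2253, 2295 and 2226 counts at day −2, 1264, 1105 and 1325 at day 1, 2770, 2877 and 2311 at day 3, and 1874, 1875 and 1607 at day 7. The day 1 libraries were the lowest without overlap, and the day 3 libraries the highest. Cdk6 fell 1.83-fold at day 1 (log2 −0.87 ± 0.16, adjusted p = 7e-04 by edgeR) and rose 2.15-fold from day 1 to day 3 (1.11 ± 0.16, adjusted p = 5.9e-05). The difference of day 7 from day 3, −0.57 ± 0.15, had an adjusted p of 0.019. The day 1 call was lost without replicate A (−0.9, adjusted p = 0.062) or C (−0.94, 0.015), and the rise to day 3 without A (1.09, 0.017).

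Cdkn1b, whose product p27 holds quiescent cells in G1, had 3511, 2961 and 2992 normalized total counts at day −2 and 3949, 2852 and 3017 at day 1. It had 1816, 1185 and 1244 at day 3 and 2379, 1315 and 2186 at day 7. The day 3 and day 7 libraries lay below those of the first days, and replicate A was the highest at each day. Cdkn1b fell 2.23-fold by day 3 (log2 −1.16 ± 0.23, adjusted p = 0.00088 by edgeR), and the difference at day 7, −0.69 ± 0.23, had an adjusted p of 0.025. From day 1 to day 3 it fell 2.31-fold (−1.21 ± 0.23, adjusted p = 0.001). Without replicate C the call at day 3 was lost (−1.11, adjusted p = 0.025), and the fall from day 1 was lost without A (−1.27, 0.012) or C (−1.18, 0.029). Neither was called on the gene's second entry (−1.39, 0.032, and −1.35, 0.051). That entry is only 9 bases long, with a mean of 123.8 raw total reads beside 2623 on the main entry.

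Cdkn2c, whose product p18 is an INK4 inhibitor, showed the largest rise of the 10. Its counts were 386, 440 and 321 at day −2, 518, 577 and 482 at day 1, 2256, 2616 and 2816 at day 3, and 2728, 2124 and 2570 at day 7. The libraries of days 3 and 7 stood far above the rest and overlapped each other. Cdkn2c rose 6.7-fold by day 3 (log2 2.74 ± 0.18, adjusted p = 1.3e-08 by edgeR) and was 6.47-fold higher at day 7 (2.69 ± 0.18, adjusted p = 1.1e-08). The difference at day 1 was 0.46 ± 0.17 (adjusted p = 0.074). The adipocyte markers rose in the same interval, from a sum of 41760 to 45300 at day 1 to 364300 to 512000 at day 3, and their part in the result was not tested.

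Rb1, the retinoblastoma gene, had 151, 221 and 193 counts at day −2, 143, 138 and 176 at day 1, 349, 454 and 189 at day 3, and 568, 480 and 533 at day 7. The day 7 libraries were above all others, and day 3 spread widely, with replicate C inside the range of day −2. Rb1 was 2.8-fold higher at day 7 than at day −2 (log2 1.49 ± 0.28, adjusted p = 0.00038 by edgeR) and rose from day 1 to day 3 (1.12 ± 0.28, adjusted p = 0.0061). Without replicate A the former call was lost (1.29, adjusted p = 0.033) and so was the latter (1.03, 0.12), which was also lost without B (0.75, 0.046). On the second Rb1 entry neither was called (1.78, 0.038, and 1.71, 0.078). That entry is 78 bases long, with a mean of 27.54 raw total reads beside 271 on the main entry. Rbl1, which encodes the RB relative p107, had 21.9 to 109 counts per DMSO library; each later day overlapped with day −2, while day 7 lay below day 1, and the log2 fold changes against day −2 were 0.16 ± 0.47, −0.71 ± 0.48 and −0.69 ± 0.48 at days 1, 3 and 7 (adjusted p = 0.86, 0.26 and 0.27). Cdkn1c was at the limit of detection in these cells. Its DMSO libraries held 3 to 7 reads at day −2, 2 to 14 at day 1, 3 or 4 at day 3, and 0 or 1 at day 7, so no fold is given.

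Of 31 other genes of the G1 and S phase machinery (E-type and A-type cyclins, E2F factors, other inhibitors and activators), 3 rose at day 1 and none fell, which is 9.68% beside the 16.8% of all genes. They were Cdk1, the mitotic kinase (log2 1.79 ± 0.28), Ccna2, cyclin A2 (1.47 ± 0.21), and Cks1b, a CDK subunit (1.31 ± 0.18), with adjusted p-values of 0.00023, 9.8e-05 and 6.3e-05 by edgeR. Of 25 E2F target genes, mostly of DNA replication, 12 rose at day 1 and none fell (48%), with a median log2 fold change of 1.03 beside 0 over all genes. At day 7 this list had 19 genes below their level at day −2 and 1 above (80% called), with a median of −1.75, and the first list had 8 below and 1 above (29%), beside 38.3% of all genes. Mean Ccna2 counts ran 706.5, 1959, 542.6 and 92.37 over the 4 days. Leaving out replicate A lowered the day 1 counts to 0 partners and 3 targets, while 4.13% of all genes were called. Leaving out C gave 3 and 4, beside 6.76% of all genes. At day 7 the targets below day −2 numbered 11 without A and 14 without C, and the partners 3 and 6. Without A, 21% of all genes were called at day 7 in either direction. At day 1, when these targets rose, Ccnd3 rose and Ccnd2 fell, while Ccnd1 lay below day −2 in all 3 libraries without passing edgeR's threshold.

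In labelled reads, members that were called after induction were lower than before it. In DMSO the labelled share of a whole library was 3.17% ± 0.485 (SD, n = 3) at day −2, and later 1.27% ± 0.0798 (day 1), 1.03% ± 0.115 (day 3) and 1.03% ± 0.0869 (day 7). Because labelled counts were scaled by total reads, this lowered the median labelled gene by log2 −1.2, −1.64 and −1.47 at days 1, 3 and 7. Against day −2 the calls numbered 3 of 7 members at day 1, 4 at day 3 and 5 at day 7, all lower, with backgrounds of 19.5%, 34.3% and 30% of 6434 genes in either direction, and 18.9%, 32.3% and 28.1% for lower genes alone. The medians of the 7 members were −1.53, −1.56 and −1.79 at days 1, 3 and 7. With each library's own labelled total as the scale instead, these falls shrank, as given for each gene.

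**Figure D2:**
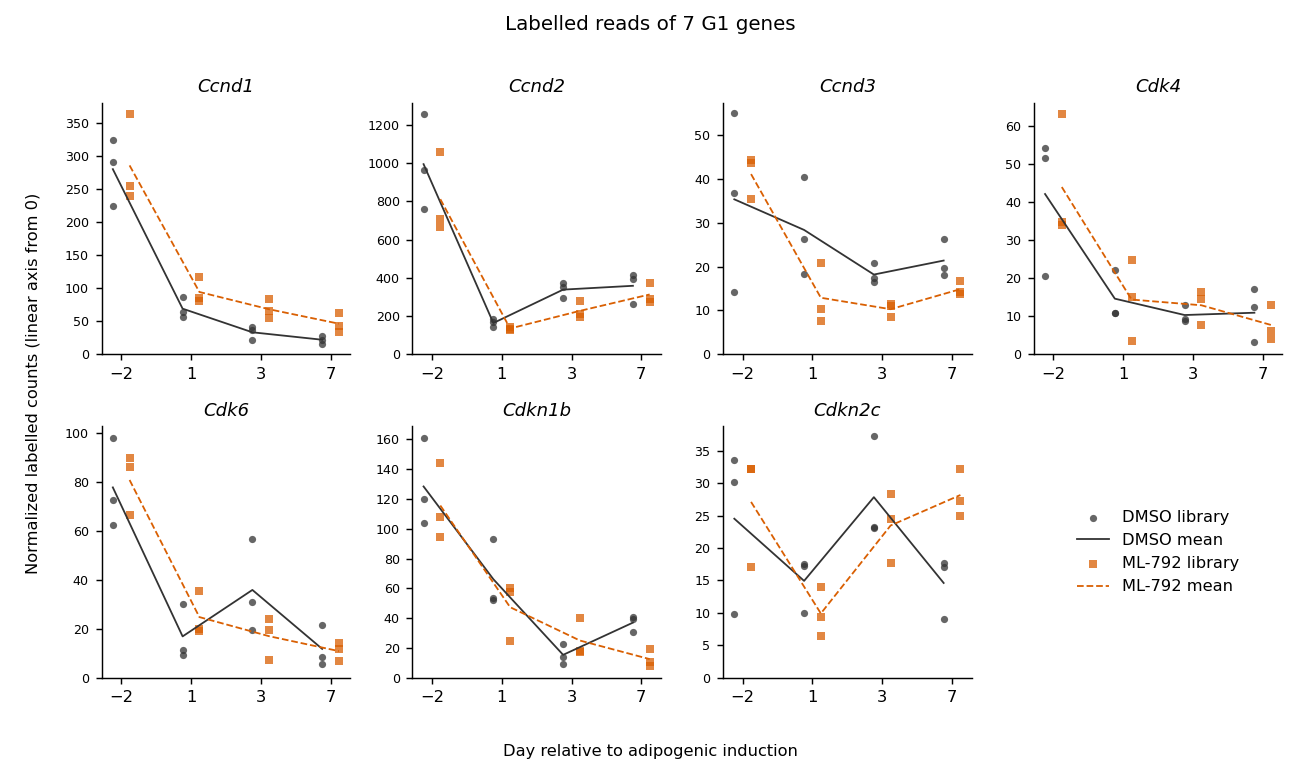
Normalized labelled counts of the 7 genes with enough labelled reads (linear vertical axes from 0) by day (even spacing), with DMSO libraries as circles, ML-792 libraries as squares and lines through group means (n = 3). Labelled Ccnd1, Ccnd2, Cdk6 and Cdkn1b drop between days −2 and 1 and stay below their first level, while the Cdkn2c points overlap between days −2 and 3.

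Labelled Ccnd1 had 325, 225 and 292 normalized counts at day −2, 57, 86.5 and 63.5 at day 1, 41.6, 22 and 35.9 at day 3, and 21.4, 28.2 and 16 at day 7. The libraries of all later days were below those of day −2. Labelled Ccnd1 fell by 2.02 ± 0.38 on the log2 scale at day 1 (adjusted p = 5e-05 by edgeR), where its total reads did not pass the test. It was 8.43-fold lower at day 3 (−3.08 ± 0.4, 2e-08) and 12.7-fold lower at day 7 (−3.67 ± 0.42, 4.4e-10). With scaling by labelled reads the changes were −0.74 (adjusted p = 0.19), −1.55 (0.0013) and −2.23 (7.4e-06). Without replicate A the day 1 call was lost (−1.79, adjusted p = 0.018).

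Labelled Ccnd2 had 1260, 759 and 966 counts at day −2, 167, 182 and 140 at day 1, 371, 292 and 351 at day 3, and 415, 264 and 395 at day 7. Every later library was below day −2, and day 1 was the lowest. Its log2 fold changes were −2.61 ± 0.32, −1.56 ± 0.31 and −1.47 ± 0.3 (adjusted p = 5.4e-09, 5.1e-05 and 0.00011 by edgeR). Scaled by labelled reads they were −1.31 (adjusted p = 0.00058), −0.01 (0.99) and −0.04 (0.95), so that only the fall at day 1 was called under both scalings. The labelled share of Ccnd2 reads was 1.96% ± 0.435 (SD, n = 3) at day −2 and 0.781% ± 0.0443, 0.629% ± 0.0547 and 0.639% ± 0.124 at days 1, 3 and 7. Its total reads overlapped with day −2 at day 3, with a smaller share of them labelled, as in the libraries as a whole. From day 1 to day 3 labelled Ccnd2 differed by 1.05 ± 0.3 (adjusted p = 0.025 by edgeR), called in 5 of 11 alternatives, among them DESeq2 (0.0068), scaling by labelled reads (1.31, 0.00079) and the fit without replicate B (1.23, 9e-05). Without replicate A the calls at days 3 and 7 were lost (−1.42, adjusted p = 0.011, and −1.39, 0.015).

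Labelled Ccnd3 had 14.3 to 55.1 counts at day −2 and 16.4 to 40.4 in the later DMSO libraries, with overlap at each day. Its log2 fold changes were −0.31, −0.96 and −0.73 (adjusted p = 0.63, 0.12 and 0.24) and turned to 0.97, 0.62 and 0.74 when scaled by labelled reads. Labelled Cdk4 had 54, 20.6 and 51.5 counts at day −2, and 8.75 to 12.8 at day 3. It fell at day 3 (log2 −2.02 ± 0.6, adjusted p = 0.005 by edgeR) and was called lower at day 7 (−1.95 ± 0.6, 0.0071), both lost without replicate A (−1.7, 0.11, and −1.83, 0.095), without C (−1.79, 0.071, and −2.26, 0.028), and under the other scaling (−0.44, 0.68, and −0.5, 0.63).

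Labelled Cdk6 had 98.2, 62.6 and 72.8 counts at day −2, 9.2, 30.1 and 11.5 at day 1, 56.9, 19.7 and 31.2 at day 3, and 21.4, 8.34 and 5.71 at day 7. Labelled Cdk6 fell at day 1, as total reads did (log2 −2.2 ± 0.52, adjusted p = 0.00093 by edgeR), and day 7 was called lower too (−2.71 ± 0.54, 7.5e-05). Scaled by labelled reads neither was called (−0.91, 0.26, and −1.28, 0.069), and the day 1 call was lost without replicate A (−1.7, 0.078) or C (−2.03, 0.021). A return from day 1 to day 3 was not called in labelled reads. The libraries of these days overlapped, and 1 of 11 alternatives called the difference.

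Labelled Cdkn1b had 161, 104 and 120 counts at day −2, 92.9, 51.9 and 53.6 at day 1, 23, 13.9 and 9.26 at day 3, and 39.5, 40.7 and 30.8 at day 7. Day 3 was lowest, and all day 7 libraries were above it. Labelled Cdkn1b was 8.26-fold lower at day 3 than at day −2 (log2 −3.05 ± 0.45, adjusted p = 3.6e-07 by edgeR), and 3.46-fold lower at day 7 (−1.79 ± 0.42, 0.00057). Scaled by labelled reads the day 3 call stood (−1.52, 0.006) and that of day 7 did not (−0.34, 0.62). It was also the 1 member called by edgeR between days 1 and 3 in labelled reads, where 3.48% of genes were (−2.09 ± 0.45, 0.0012), although not without replicate A (−2.18, 0.035) or C (−1.96, 0.054). The day 7 call was lost without A (−1.64, 0.03) or C (−1.72, 0.015).

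Labelled Cdkn2c had 33.5, 9.84 and 30.2 counts at day −2, 17.5, 10 and 17.3 at day 1, 37.2, 23.2 and 23.1 at day 3, and 9.03, 17.7 and 17.1 at day 7. Its libraries overlapped between day −2 and every later day, with log2 fold changes of −0.71, 0.18 and −0.74 (SE 0.56, 0.54 and 0.57), none of them called. The share of its reads that was labelled began at 6.78% ± 3.95 (SD, n = 3) on day −2 and was 2.9% ± 1.02, 1.12% ± 0.46 and 0.611% ± 0.257 on days 1, 3 and 7, while the share of whole libraries also went down. Under the other scaling its day 3 change was called (1.75, adjusted p = 0.0091). Between days 3 and 7 no member was called in labelled reads, where 0.326% of genes were. At an unadjusted p under 0.05 there were 2 members, beside 10.6% of genes. DESeq2 called no member and 1.12% of genes. Labelled reads of Rb1 numbered 0 to 15 and those of Rbl1 0 to 4 per library, and Cdkn1c had 0 in all 24, so these genes were not tested.

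**Figure D3:**
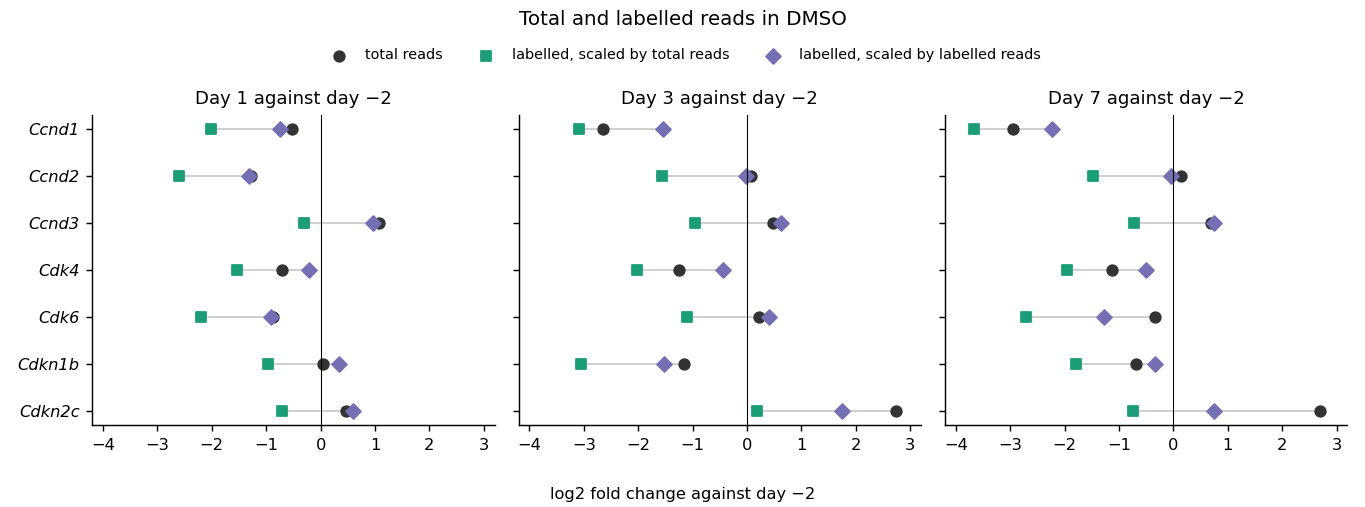
Log2 fold change against day −2 in DMSO (horizontal axis) at days 1, 3 and 7 for 7 genes, with total reads as circles, labelled reads scaled by total reads as squares and labelled reads scaled by labelled reads as diamonds (n = 3 per day, errors in the text). The squares lie left of the other points for every gene; Ccnd3 crosses 0 with the scaling, and total Cdkn2c at 2.74 and 2.69 lies right of both labelled values.

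Under ML-792, Cdkn2c again rose, Cdk4 fell and Ccnd2 dipped at day 1 in total reads. Against day −2 the calls numbered 5 at day 1 (background 24.3%), 3 at day 3 (41.1%) and 7 at day 7 (40.7%), with 4 between days 1 and 3 (25.4%) and 4 between days 3 and 7 (13.6%). Cdkn2c rose by log2 2.34 ± 0.14 by day 3 and 2.94 ± 0.14 by day 7 (adjusted p = 1.2e-08 and 1.5e-09 by edgeR), and it rose further from day 3 to day 7 (0.59 ± 0.13, 0.0052). Cdk4 fell by 1.2 ± 0.18 on the log2 scale by day 3 (adjusted p = 8.4e-05) and by 1.47 ± 0.18 by day 7 (1.4e-05). Ccnd2 fell at day 1 (−0.83 ± 0.15, 0.00083), came back by day 3, and was above its first level at day 7 (0.64 ± 0.15, 0.0031). Ccnd3 was higher at day 1 (0.64 ± 0.12, 0.0013) and day 7 (0.76 ± 0.12, 0.00016), and Rb1 at day 7 (1.45 ± 0.18, 1.4e-05). Without replicate A the calls of Ccnd2 at days 1 and 7 were lost (adjusted p = 0.033 and 0.033), as were those of Ccnd3 (0.049 and 0.016) and the further rise of Cdkn2c (0.13). Without C the Ccnd2 calls (0.018 and 0.031), that of Ccnd3 at day 1 (0.042) and the further rise of Cdkn2c (0.083) were lost.

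In labelled reads of the ML-792 course 5 members were called against day −2 at day 1 (background 27.1%), 6 at day 3 (35.2%) and 5 at day 7 (39.3%), all of them lower. Labelled Cdkn1b was lowest at day 7, with 19.1, 10.3 and 8.19 counts after 144, 94.7 and 108 at day −2 (log2 −3.18 ± 0.45, adjusted p = 9.6e-09 by edgeR). Under the scaling by labelled reads the day 1 change of Cdkn1b turned from −1.28 to 0.06, and that of Ccnd2 at day 7 from −1.37 to 0.24. The day 1 call of Cdkn1b was kept in 5 of 11 alternatives, and was also lost without replicate A (−1.29, 0.045), B (−1.1, 0.025) or C (−1.49, 0.018), with DESeq2 (−1.24, 0.012) and with no filter on low counts (−1.28, 0.011).

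ML-792 against DMSO within a day asks whether the levels of these genes differ between cultures with and without the inhibitor. Sumoylation itself was not measured in these libraries. Ccnd1 was higher with ML-792 at days 1, 3 and 7, Cdk6 was lower at day 3, and Ccnd2 was slightly higher at day 7; the other members did not pass the test in total reads. At an adjusted p under 0.1 the calls numbered 1 of 10 at day 1, where 8.03% of genes were called, 2 at day 3 (15.4%) and 2 at day 7 (11.6%). At day −2 no member was called, nor was any of the 13331 genes (0%), with no member but 184 genes at an unadjusted p under 0.05, and DESeq2 called none either. The interaction of day and treatment, tested as the 3 changes from day −2 together, was called for 3 of the 10 members against a background of 11.9%.

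**Figure D4:**
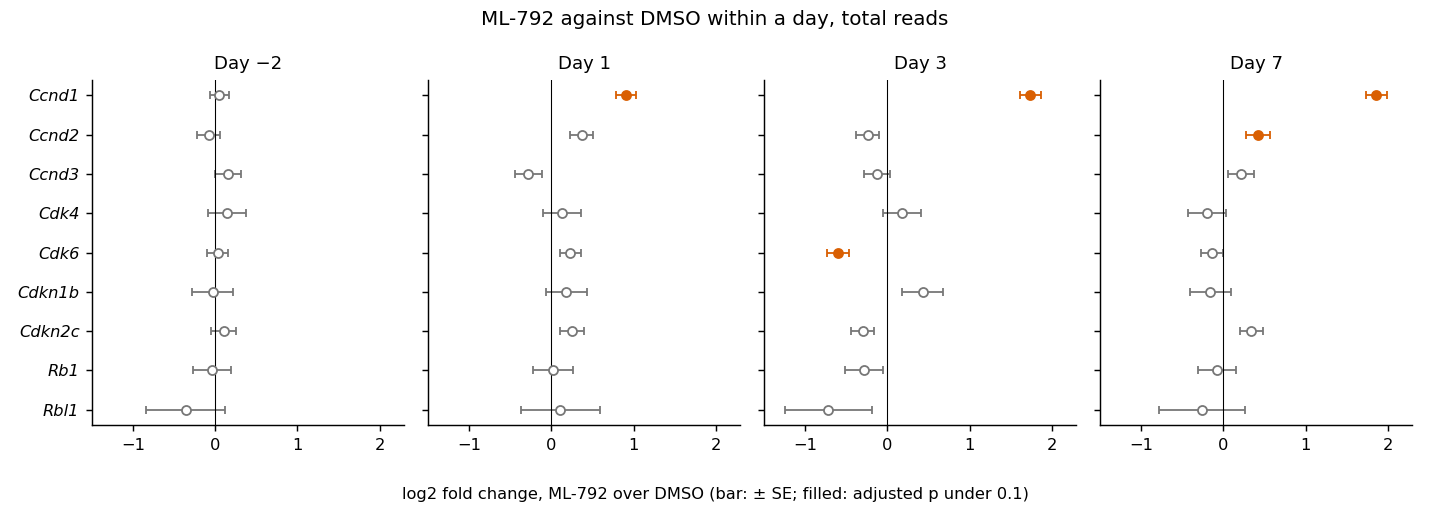
Log2 fold change of total reads, ML-792 over DMSO (horizontal axis, bars ± SE, n = 3 against 3), at days −2, 1, 3 and 7 for 9 genes without Cdkn1c, filled where the adjusted p was under 0.1. Ccnd1 moves right from 0.05 at day −2 to 0.91, 1.74 and 1.86, Cdk6 lies left at day 3 with −0.6, and the remaining points except Ccnd2 at day 7 are open.

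Ccnd1 had 13097, 11878 and 12288 normalized total counts with ML-792 at day −2, within the DMSO range of the same day and slightly beyond it. It had 15967, 14645 and 16344 at day 1, 6768, 6474 and 6037 at day 3, and 5710, 5436 and 5708 at day 7. From day 1 on, every ML-792 library was above every DMSO library of its day. Ccnd1 was 1.88-fold higher at day 1 (log2 0.91 ± 0.12, adjusted p = 3.2e-05 by edgeR), 3.35-fold at day 3 (1.74 ± 0.13, 1.6e-09) and 3.64-fold at day 7 (1.86 ± 0.13, 1.8e-09). It still fell under ML-792, with log2 fold changes against day −2 of −0.95 at day 3 and −1.14 at day 7 (adjusted p = 1.9e-05 and 3.1e-06). Its day 1 level under ML-792 was 0.33 ± 0.12 above day −2 (0.048 by edgeR, and called by DESeq2 with 0.00012), and from day 1 to day 3 it fell by 1.28 (2.7e-06). The interaction had an adjusted p of 4.1e-07.

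The pre-adipocyte markers differed with Ccnd1 at the later days, as the 10 genes summed to 104400 to 119600 with ML-792 at day 3 against 69950 to 82100 in DMSO, and to 108600 to 146900 against 62540 to 97210 at day 7. By mean level, 7 of the 10 were higher with ML-792 at day 3, with Col3a1, Dlk1 and Pdgfrb lower, and 8 at day 7, with Dlk1 and Fn1 lower. At day 1, where Ccnd1 was higher, their sum was 301000 to 417500 with ML-792 and 395000 to 466600 in DMSO, with 4 of the 10 higher by mean (Thy1, Fn1, Pdgfra and Col1a2) and 6 lower. These markers are named after their values were seen. All 10 markers had over 3 reads in each group, and their part in the Ccnd1 result was not tested. The adipocyte markers summed to 412700 to 471900 with ML-792 at day 3 and 364300 to 512000 in DMSO, and to 854300 to 912700 against 655300 to 731000 at day 7. The single genes were mixed. By mean level, 3 of these 10 were higher and 7 lower with ML-792 at day 3, and 7 higher and 3 lower at day 7. Without overlap of the libraries, 1 was above and 4 below at day 3, and 3 above and 2 below at day 7.

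In labelled reads, Ccnd1 with ML-792 had 364, 240 and 255 counts at day −2, 117, 84.9 and 81.1 at day 1, 54.3, 65.9 and 84.1 at day 3, and 62, 42.5 and 34.1 at day 7. The ML-792 libraries of days 3 and 7 lay above those of DMSO without overlap, and those of day 1 overlapped. The log2 fold changes were 0.45 ± 0.34, 1.03 ± 0.36 and 1.07 ± 0.37 at days 1, 3 and 7, and none passed the threshold (adjusted p = 0.67, 0.23 and 0.21 by edgeR). Scaled by labelled reads, the difference at day 7 was 1.4 (adjusted p = 0.045). The labelled interaction of Ccnd1 was not called (adjusted p = 0.76).

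Ccnd2 with ML-792 had 53420, 43358 and 46897 total counts at day −2, 28744, 23929 and 28125 at day 1, 51654, 46697 and 38026 at day 3, and 78811, 73858 and 70545 at day 7. All ML-792 libraries of day 7 were above the DMSO ones, and the groups overlapped on the other days. Ccnd2 was 1.34-fold higher at day 7 (log2 0.42 ± 0.14, adjusted p = 0.082 by edgeR), with differences of 0.37 ± 0.14 at day 1 (0.18) and −0.24 ± 0.14 at day 3 (0.39), and its interaction had an adjusted p of 0.076. The day 1 difference was called by DESeq2 (0.04) and without replicate B (0.55, 0.012). The day 7 call was kept in 4 of 10 alternatives, with an adjusted p of 0.47 without replicate A and 0.36 without C. Labelled Ccnd2 at day 7 was 374, 291 and 273 with ML-792 beside 415, 264 and 395 in DMSO (log2 −0.19 ± 0.27, 0.83).

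The 2 annotated Ccnd2 entries also bear on that value, since the longer one reaches 546 bases further (chr6:127125162-127125707). These bases took 37.1% to 56.3% of its reads (median 41.5%). The 3 highest shares were those of replicate B in DMSO, with 56.3% at day −2 (95% Wilson interval 55.8 to 56.7, counting error only), 55% at day 1 (54.4 to 55.6) and 49.8% at day 3 (49.3 to 50.3). On the shorter entry, without these bases, the ML-792 difference was 0.5 at day 1 (adjusted p = 0.062) and 0.36 at day 7 (0.19).

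Cdk6 with ML-792 had 2282, 2342 and 2277 counts at day −2, 1445, 1411 and 1477 at day 1, 1972, 1771 and 1517 at day 3, and 1591, 1746 and 1534 at day 7. At day 3 every ML-792 library was below every DMSO library. Cdk6 was 1.51-fold lower at day 3 (log2 −0.6 ± 0.13, adjusted p = 0.0031 by edgeR), with differences of 0.23 ± 0.13 at day 1 (0.45) and −0.14 ± 0.13 at day 7 (0.66). The interaction had an adjusted p of 0.025. Without replicate A the day 3 call was lost (−0.66, adjusted p = 0.11), and the interaction was called in 6 of 9 alternatives.

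For the other members the intervals give how far apart ML-792 and DMSO could be. Ccnd3 counts were 2672, 2774 and 2785 with ML-792 at day 1, all below DMSO, with a log2 difference of −0.28 (95% confidence interval −0.6 to 0.05, adjusted p = 0.45), and at day 7 3052, 3016 and 2887 (0.21, −0.12 to 0.53). Without replicate B, whose DMSO library at day 7 was high, that last difference was 0.46 (adjusted p = 0.016). Cdk4 differed by 0.13 (−0.35 to 0.61) at day 1, 0.18 (−0.3 to 0.66) at day 3 and −0.2 (−0.68 to 0.28) at day 7, with overlap throughout.

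Cdkn1b had 1994, 1720 and 2016 total counts with ML-792 at day 3, against 1816, 1185 and 1244 in DMSO (log2 0.43, 95% confidence interval −0.09 to 0.95, adjusted p = 0.37). Its labelled reads at day 7 were 19.1, 10.3 and 8.19 with ML-792 and 39.5, 40.7 and 30.8 in DMSO, wholly below them. That labelled difference of −1.54 ± 0.46 had an adjusted p of 0.13 by edgeR and was called by DESeq2 (0.05). Total Cdkn1b at the same day differed by −0.16 (−0.68 to 0.36).

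Cdkn2c had 1963, 2072 and 2191 total counts with ML-792 at day 3, below the DMSO libraries (log2 −0.3, 95% confidence interval −0.6 to 0, adjusted p = 0.24). At day 7 it had 3174, 2831 and 3398, above the DMSO libraries (0.34, 0.04 to 0.64, adjusted p = 0.19). Neither passed the threshold, and the Cdkn2c interaction had an adjusted p of 0.17 by edgeR. The interaction was called in 3 of 9 alternatives (adjusted p from 0.047 to 0.77), among them DESeq2 (0.047). Rb1 differed by −0.29 (−0.77 to 0.19) at day 3 and −0.08 (−0.55 to 0.39) at day 7, and Rbl1 by −0.72 (−1.82 to 0.37) and −0.26 (−1.33 to 0.81), with overlap at every day. Cdkn1c had 2 to 9 raw reads with ML-792 at day 7 beside 0 or 1 in DMSO (adjusted p = 0.17), and 1 to 10 beside 3 or 4 at day 3.

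In labelled reads no member was called for ML-792 against DMSO at any day, beside 0%, 1.06%, 1.12% and 0.964% of 6434 genes at days −2, 1, 3 and 7. At an unadjusted p under 0.05 there were 0, 1, 3 and 2 members, beside 0.715%, 11.6%, 10.3% and 11.7% of genes. DESeq2 called 2, Ccnd1 (adjusted p = 0.084) and Cdkn1b (0.05), both at day 7, where it called 4.62% of genes. The labelled interaction was called for no member and 0.28% of genes. At an unadjusted p under 0.05 there was 1 member, Cdkn1b (adjusted p = 0.44 by edgeR), beside 8.32% of genes. DESeq2 called no member and 1.91% of genes.

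Among the 31 partners, ML-792 against DMSO in total reads gave 1 higher at day 1 (Cdc25a), 3 lower at day 3 (Ccna2, Cks1b and Mnat1) and 1 higher at day 7 (Myc). These are 3.23%, 9.68% and 3.23% of the list, below the 8.03%, 15.4% and 11.6% of all genes, and Cdc25a, Mnat1 and Myc are named after their values were seen. Ccna2 at day 3 differed by −0.93 ± 0.22 (adjusted p = 0.0056 by edgeR) and Cks1b by −0.66 ± 0.18 (0.016). Of the 25 E2F targets, 2 were higher at day 1, 1 was higher and 4 were lower at day 3, and 2 were lower at day 7, or 8%, 20% and 8% of the list. The day 1 pair was Pola1 and Rfc3, the day 3 genes were Mcm4 (higher), Rrm1, Rrm2, Top2a and Uhrf1, and the day 7 pair was Cdt1 and Tyms, all named after their values were seen. Without replicate A these counts came to 0 partners and 0 targets at days 1 and 7, and to 1 each at day 3 (E2f7 and Top2a). The calls of Ccna2 and Cks1b were thus lost. Over all genes, 2.21%, 5.99% and 3.65% were then called at days 1, 3 and 7. Without C day 3 again had 1 each (Ccna2 and Top2a), beside 7.35% of all genes. E2f7 is likewise named after its value was seen.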

How the data were processed

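The authors mapped QuantSeq reads to mm10 with SlamDunk and deposited raw counts of all reads and of labelled reads (at least 1 T-to-C conversion) per RefSeq 3′UTR entry, without normalization; basecalls were made with bcl2fastq 2.17.1.14 per the labels. Libraries were assigned to groups by their titles, with 3 biological replicates each. Of the library columns deposited, 6 per kind of count match no sample and were not used. No library without 4-thiouridine was analysed here, so conversions from sequencing errors were not subtracted.

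Counts were tested with edgeR 4.0.16 (limma 3.58.1, R 4.3.3; figures with Python 3.11.15 and matplotlib 3.10.9). Library sizes of the total counts were adjusted by TMM factors (0.903 to 1.161 in 24 libraries), and labelled counts took these factors and the total library sizes. Entries were kept by filterByExpr (minimum count 10, minimum total 15), which left 26563 of 91830 entries for total and 10589 for labelled reads. A robust quasi-likelihood model was fitted, and p-values were adjusted by Benjamini-Hochberg over all tested entries. For correlations, a prior count of 2 was added to normalized total counts before taking log2. Time courses used 12 libraries of a treatment and an adjusted p under 0.01, and ML-792 against DMSO and the interaction used all 24 and an adjusted p under 0.1. The SE is the log2 fold change over the square root of F, and 95% intervals use the fit's degrees of freedom. Backgrounds take 1 entry per gene. The fit was tested on simulated DMSO counts without a replicate effect. ML-792 against DMSO and the interaction were not simulated.

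Single-library shares have Wilson 95% intervals, which cover counting error only, as reads carry no molecular identifiers. The 10 members are all described. Named partners are those with the highest and lowest log2 fold change among called genes at day 1. The members and lists were chosen with earlier results of these data known. The alternatives were DESeq2 1.42.0, no filter or at least 10 reads, 1 entry per gene, a replicate block, the second entry of a gene, scaling by labelled reads, a time fit over 24 libraries, only the 6 libraries of a day, and leaving out each replicate.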

Additional observations from a re-analysis of the deposited data

Results flagged for a closer look

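The effect of ML-792 on total reads differed between days for 3 of the 10 members by the test of the interaction of day and treatment. For Ccnd1 (adjusted p = 4.1e-07 by edgeR) the change from day −2 with ML-792 exceeded that in DMSO by log2 0.86, 1.69 and 1.81 at days 1, 3 and 7, and the interaction was called in all 9 alternatives run (adjusted p from 1.6e-41 to 0.012). For Cdk6 (adjusted p = 0.025) the differences were 0.2, −0.62 and −0.16, called in 6 of 9 alternatives (9.9e-05 to 0.49). For Ccnd2 (adjusted p = 0.076) they were 0.44, −0.16 and 0.5, called in 4 of 9 (0.0021 to 0.72).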

How the results depend on the processing

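Of 46 calls of members in total reads, 46 were kept with DESeq2, 46 with a replicate block, 41 with no filter, 43 without replicate B, 26 without C and 20 without A, and none turned its sign. Of 29 calls in labelled reads, 7 were kept when labelled counts were scaled by labelled reads, where Ccnd2 with ML-792 at day 7 turned to 0.24 and Cdkn1b with ML-792 at day 1 to 0.06. Leaving out 1 replicate, which also leaves fewer samples, gave 3 to 8 members called over the DMSO course in total reads (8 with all), 1 to 4 for ML-792 against DMSO (3 with all) and 1 to 4 for the interaction (3 with all). The interaction called 1 member, Ccnd1, with no filter on low counts. For ML-792 against DMSO in labelled reads, where none was called, DESeq2 called 2, the replicate block 2 and scaling by labelled reads 1. At days 1, 3 and 7 DESeq2 called 4.37%, 2.58% and 4.62% of genes there, and the block 2.81%, 2.05% and 2.39%. In total reads the block called 5 members, adding Cdkn1b and Cdkn2c, beside 16.1%, 24.2% and 21.9% of genes at those days. The cause was not tested. The main fits did not take the replicate letters to pair the libraries. Same-letter deviations nonetheless correlated over 0.1 in 68 of 84 pairs (mean r 0.191, down to −0.173). Different letters did so in 20 of 168 pairs (mean r −0.094). Because the deviations within each group sum to 0, this second mean largely follows from the first and adds no separate evidence. Libraries of a letter thus shared part of their deviation, which the main p-values leave out and only the replicate block takes up. Over all genes, counts of calls in total reads moved to 0.14 to 0.549 times without A in 14 of 15 comparisons, to 0.198 to 0.613 times without C in 13, and to 1.52 to 2.21 times with the block in 9; in labelled reads DESeq2 moved 5 by 1.82 to 5.89 times and scaling by labelled reads 7 by 0.281 to 1.81 times. Labelled counts limit Ccnd3, Cdk4, Cdk6, Cdkn1b and Cdkn2c, whose lowest libraries held 7, 3, 5, 6 and 6 labelled reads.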

Other observations

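The genes whose log2 total counts followed a member most closely over the 24 libraries, among 10342 with a mean of at least 50, are given as a description, since these libraries share days and treatments. They were Cpt1a for Ccnd1 (Pearson r = 0.975), Dhcr7 for Ccnd2 (0.965), Lrpap1 for Ccnd3 (0.894), Pld3 for Cdk4 (0.949), Slc7a1 for Cdk6 (0.925), Arf6 for Cdkn1b (0.928), Mcam for Cdkn2c (0.988), Echdc1 for Rb1 (0.947) and Nek1 for Rbl1 (0.866). Next came Lynx1 for Ccnd1 (0.962), Nsdhl for Ccnd2 (0.935), Wfdc12 for Ccnd3 (0.86), Atf4 for Cdk6 (0.87), Tpm4 for Cdkn1b (0.897), Gnpat for Cdkn2c (0.987), Tspan12 for Rb1 (0.946) and Anln for Rbl1 (0.865). For Cdkn1c, at 0 to 14 reads, the highest were Tomm34 (0.636) and Tmem29 (0.575). Among the members themselves, Cdkn2c and Rb1 were closest (0.825), and Cdk4 and Cdkn2c were farthest apart (−0.849).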
